A study of Mus musculus with 2 samples.

Results

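The ATP-binding cassette (ABC) transporters are a family of membrane proteins, most of which use the energy of ATP to move lipids, bile constituents, drugs or peptides across a membrane. Members were taken as the genes of the deposited table whose symbol is Abc, a subfamily letter from a to g, a number and at most 1 further letter. That gave 50 genes of 36808 in the table, of which 16 belong to subfamily A, 10 to B, 10 to C, 4 to D, 1 to E, 3 to F and 6 to G. None of them was among the 7 genes that the table marks as having too many fragments. Tap1, Tap2 and Cftr belong to the superfamily under other symbols and are given separately.

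Messenger RNA levels were read by sequencing in primary hepatocytes, the parenchymal cells of the liver, isolated from mice labelled C57Bl6. Both groups were cultured in William E medium with serum, insulin and dexamethasone. One group received DMSO, the solvent, and the other was given GW3965 at 1 µM, a drug-like ligand that activates liver X receptors (LXR). The sources used here do not give the time of exposure, the animals' age or sex, or their number. Each group had 1 library, so no difference below has a replicate check, and no test across conditions was possible. GL is the table's name for the library that was taken to be the GW3965 one, since the labels list 1 sample beside DMSO. What the letters stand for is not stated, so that match is not certain.

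LXRs are nuclear receptors that bind oxysterols and act as heterodimers with RXR. Abca1, which hands cholesterol and phospholipid to apolipoprotein A-I, and Abcg1, which supports efflux to mature HDL, are textbook LXR targets in many cells. Abcg5 and Abcg8 form a heterodimer that secretes sterols into bile and are LXR targets in the liver. Other members of the family serve the same cell in other ways. Abcb11 exports bile salts, Abcb4 flops phosphatidylcholine into bile, Abcc2 exports conjugates at the canaliculus, and most members of the D subfamily bring fatty acyl-CoA into peroxisomes.

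The values are FPKM, fragment numbers set per length of transcript and per size of library, so levels can be compared between genes. Of the 50 members, 33 had at least 1 FPKM in either library and are called measured here, beside 32.1% of all genes. Abcd2 and Abcc6 passed through the DMSO library alone, in which they were higher. Another 13 members lay below 1 FPKM but above 0 in at least 1 library, and 4 members (Abca12, Abca15, Abca16 and Abcb5) were listed at 0 in both. Unless another scale is named, a ratio is the log2 of FPKM + 1 in GW3965 divided by FPKM + 1 in DMSO, which understates differences of low genes.

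Of the 33 measured members, 3 were at least 1.5-fold higher in the GW3965 library, namely Abca1, Abcg1 and Abcb1a. Of all 11796 measured genes, 1.02% were at least 1.5-fold higher. None of the 33 was at least 1.5-fold lower, beside 1.33% of all measured genes, a share that would amount to less than 1 member. The median ratio of the measured members was 0.06, and that of all measured genes was 0.01. The other 30 members lay within 1.5-fold. Among all measured genes 97.7% lay within 1.5-fold, and 78.2% lay within 0.2 of no difference, against 57.6% of the measured members. The authors' deposited table tested 40 members and called 2, Abca1 and Abcg1, both higher. In the authors' deposited table, 0.166% of the genes tested were called higher and 0.119% were called lower. That test compares the reads of 2 libraries, not the conditions.

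**Figure D1:**
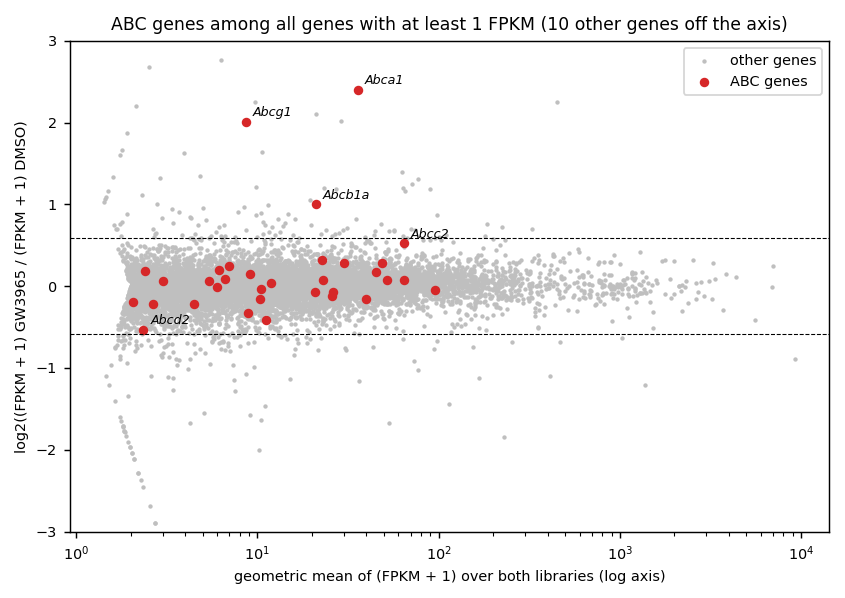
Log2 ratio of GW3965 over DMSO (vertical axis, FPKM + 1) against the geometric mean of FPKM + 1 in both libraries (horizontal log axis) for the genes with at least 1 FPKM in either library. Red points are the 33 measured ABC genes and grey points all other genes, of which 10 lie off the axis. Dashed lines mark 1.5-fold, and Abca1, Abcg1 and Abcb1a lie above the upper line while Abcd2, at -0.53, lies just inside the lower line.

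Abca1 (ENSMUSG00000015243, chromosome 4, 53043659 to 53172767, mm9) had 14.6 FPKM in the DMSO library and 81.1 FPKM in the GW3965 library, a log2 ratio of 2.40. Among the 50 members it stood at place 14 by level in DMSO and at place 2 in GW3965. Only 7 of all measured genes had a higher ratio. The FPKM ratio without a pseudocount was 5.57, with an exact 95% interval of 5.45 to 5.69 from counting, computed from about 9313 and 64462 fragments estimated at the longest annotated transcript. Such intervals cover counting error only and leave out any difference between cultures. The standard error derived from the authors' deposited table was 0.42 on the log2 scale, 26.2 times the counting error, and that table gives q = 4.67e-06.

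The annotated start of Abca1 is shown because it is the member with the highest ratio and a known direct LXR target. The window runs from 250 bases before to 50 after the RefSeq start on the minus strand (GRCm38.p6, chr4:53159846-53160145), read in the direction of the gene. Capitals mark, in order, CACGTG (an E-box), the closest match to a direct repeat of AGGTCA spaced by 4 bases, and TATAAA.
Abca1: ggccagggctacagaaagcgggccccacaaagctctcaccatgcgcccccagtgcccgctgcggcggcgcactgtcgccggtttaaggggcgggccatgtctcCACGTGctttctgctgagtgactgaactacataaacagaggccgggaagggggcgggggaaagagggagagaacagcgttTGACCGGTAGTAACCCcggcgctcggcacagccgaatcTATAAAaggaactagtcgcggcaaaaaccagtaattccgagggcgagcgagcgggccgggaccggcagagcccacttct
A direct repeat with 4 spacer bases is the textbook element of LXR-RXR heterodimers. The pattern of AGGTCA, any 4 bases and AGGTCA was searched on both strands, and the window of Abca1 holds, on the strand opposite to the gene, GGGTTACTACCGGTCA, 67 to 52 bases before the start. It differs from the pattern at 3 of the 12 fixed bases. A match with up to 3 differences occurs in 21.9% of all 32851 promoter windows of that length, so at this laxity it is common. TATAAA in either direction occurs in 13.6% of them and CACGTG in 7.15%. The RefSeq table held windows for 38 of the 50 members, 45 windows in all. Abcg1 was among the 12 members without a window, so its start was not searched. Of the 38 members searched, Abca1 and Abcc10 were the 2 with a match at up to 3 differences. Abcc10, which had 2 differences or fewer, as have 3.02% of all windows, had a ratio of -0.22. These matches describe letters only.

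Abcg1 (ENSMUSG00000024030, chromosome 17, 31194643 to 31252722, mm9) had 3.28 FPKM in DMSO and 16.3 FPKM in GW3965, a log2 ratio of 2.01. It moved from place 28 to place 16 among the members, and 13 measured genes had a higher ratio. The FPKM ratio was 4.96 (exact 95% counting interval 4.66 to 5.28). Its standard error, derived from the authors' deposited table, was 0.22, or 4.82 times the counting error. The authors' deposited table lists q = 0 for Abcg1. The ratios of Abca1 and Abcg1 differ by little on the no-pseudocount scale, at 2.48 and 2.31 on the log2 scale, which is within the standard error of 0.42 for Abca1.

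The other sterol transporters were below 1 FPKM in both libraries. Abcg5 had 0.601 FPKM in DMSO and 0.786 FPKM in GW3965, an FPKM ratio of 1.31 with a counting interval of 0.989 to 1.74. Abcg8 had 0.587 and 0.530 FPKM, an FPKM ratio of 0.903 (0.709 to 1.15). Both intervals hold 1, and their upper bounds lie below the lower bounds of Abca1 and Abcg1. Abcg4, the close relative of Abcg1 best known from the nervous system, had 0.0265 and 0.0874 FPKM, levels estimated at 6 and 26 fragments. Its FPKM ratio of 3.30 had a counting interval of 1.40 to 10.4, and its log2 standard error in the authors' deposited table was 1.79. That interval leaves out 1 and covers the ratio of Abcg1, at a level too low to say more. With the pseudocount Abcg4 stood at 0.08, because both of its values are far below 1.

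Abcg5 and Abcg8 share a locus in the table (chromosome 17, 85057574 to 85099673, mm9) and are transcribed away from each other. A stretch of 209 bases lies in the start windows of both genes (GRCm38.p6, chr17:84682962-84683170, plus strand). It is shown because the 2 partners of the heterodimer are read from the same short region. Capitals mark a TATAAA match, which here lies on the minus strand.
Abcg5 and Abcg8 shared stretch: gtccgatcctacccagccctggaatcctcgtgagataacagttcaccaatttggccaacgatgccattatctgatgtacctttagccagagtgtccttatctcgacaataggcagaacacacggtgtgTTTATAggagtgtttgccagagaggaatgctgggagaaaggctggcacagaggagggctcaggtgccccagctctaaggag
Neither the window of Abcg5 nor those of Abcg8 held a direct repeat match at up to 3 differences. The transcripts of Abcg5 and Abcg8 share 2.17% of the 25-base words of Abcg5. Words on either strand were counted, so any overlap of the 2 genes on opposite strands is included. Summed over both genes the level was 1.19 FPKM in DMSO and 1.32 FPKM in GW3965.

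Abcc2 was the highest of the bile transporters. It exports bilirubin and drug conjugates into bile, and it had 52.7 FPKM in DMSO and 76.1 FPKM in GW3965, a log2 ratio of 0.52. That lies just under 1.5-fold, at an FPKM ratio of 1.45 (counting interval 1.42 to 1.47), and 156 measured genes had a higher ratio. Its standard error derived from the authors' deposited table was 0.42, so the difference is 1 standard error wide or little more, and the authors' deposited table gives p = 0.210. Abcb4, the phosphatidylcholine floppase, had 25.6 and 24.3 FPKM (-0.07). Abcb11, the bile salt export pump, had 1.26 and 1.56 FPKM (0.18). The level of Abcb11 stood at place 32 of the 50 members in DMSO, against place 3 for Abcc2 and place 10 for Abcb4.

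Of 10 listed genes that work beside them at the canaliculus and the sinusoid, 6 lay below 1 FPKM in both libraries. The 4 measured ones had ratios slightly below 0, between -0.12 and -0.01. Slc10a1, the sodium-dependent bile salt uptake carrier, had 0.522 FPKM in DMSO and 0.233 FPKM in GW3965. Tmem30a, a subunit of phospholipid flippases, was the highest at 34.3 and 34.0 FPKM. Of 7 listed sensors of bile acids and xenobiotics, 6 were measured and 5 of those had ratios below 0, while 52.9% of all measured genes had one above 0. Nr1h4, which encodes the bile acid receptor FXR, had 4.47 and 2.65 FPKM (-0.58), and Nr0b2, its target SHP, had 1.88 and 1.12 FPKM (-0.44). Nfe2l2, which encodes NRF2, had 144 and 102 FPKM (-0.50). With the pseudocount no measured gene of these lists passed 1.5-fold, but without it Nr1h4 stood at -0.75 and Nr0b2 at -0.75 on the log2 scale, past 1.5-fold. On that scale 2.7% of measured genes were at least 1.5-fold lower. Among the partners below the minimum, Slc10a1 (-1.17), Slco1b2 (-2.01), Slco2b1 (-1.07) and Slc51b (-0.73) were also past 1.5-fold lower on that scale, while Slco1a1 stood at 0.47. These partners had at most 0.522 FPKM in either library. No counting interval and no share over genes of such low level was computed, so no fall of this list can be read from them. No gene of these lists was called in the authors' deposited table.

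Transporters of drugs and organic anions held the largest share of the family's summed FPKM, 38.2% in DMSO and 35.2% in GW3965. Of 8 members all were measured, 4 had ratios above 0 and 4 below, with a median of 0.12. Abcc3, a basolateral exporter of glucuronides and bile salts, was the highest ABC gene in both libraries at 95.8 FPKM in DMSO and 92.5 FPKM in GW3965 (-0.05). Abcc4, another basolateral exporter, had 43.1 and 52.6 FPKM (0.28). Abcg2, an apical exporter of drugs and urate, had 41.0 and 36.6 FPKM (-0.16). Abcc1, a glutathione conjugate exporter, had 19.4 and 24.6 FPKM (0.32). Abcc5, which exports cyclic nucleotides, had 9.67 and 9.38 FPKM (-0.04), and Abcc10 had 1.88 and 1.47 FPKM (-0.22). Apart from Abcb1a, these genes differed by less than 1.5-fold.

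Abcb1a and Abcb1b encode the 2 P-glycoproteins of the mouse, multidrug exporters that in humans are served by a single gene. Abcb1a (chromosome 5, 8660077 to 8748575, mm9) had 13.8 FPKM in DMSO and 28.7 FPKM in GW3965, a log2 ratio of 1.00. Abcb1b, which lies 25001 bases further on, had 26.1 and 32.0 FPKM (0.29). The value of Abcb1a is uncertain. Its standard error in the authors' deposited table was 1.56 on the log2 scale, 59.9 times the counting error, and that table gives p = 0.500. The transcripts of Abcb1a share 24.2% of their 25-base words with those of Abcb1b, so reads can be split between the 2 genes. Summed over the pair, the level was 39.9 FPKM in DMSO and 60.8 FPKM in GW3965, a log2 ratio of 0.59. Abcb4, 27402 bases beyond Abcb1b in the same cluster, shared 2.87% of its words with Abcb1a and stood at -0.07.

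The start windows of both P-glycoprotein genes are shown because the genes are neighbours that share sequence and can share reads (GRCm38.p6, plus strand, chr5:8566841-8567140 for Abcb1a and chr5:8797897-8798196 for Abcb1b). Neither window holds any of the 3 motifs searched, so no base is in capitals.
Abcb1a: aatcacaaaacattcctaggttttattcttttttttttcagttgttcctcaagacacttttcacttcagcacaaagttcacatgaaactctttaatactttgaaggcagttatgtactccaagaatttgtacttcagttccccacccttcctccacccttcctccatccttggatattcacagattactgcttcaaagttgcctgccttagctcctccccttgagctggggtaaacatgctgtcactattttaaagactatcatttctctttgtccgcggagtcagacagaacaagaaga
Abcb1b: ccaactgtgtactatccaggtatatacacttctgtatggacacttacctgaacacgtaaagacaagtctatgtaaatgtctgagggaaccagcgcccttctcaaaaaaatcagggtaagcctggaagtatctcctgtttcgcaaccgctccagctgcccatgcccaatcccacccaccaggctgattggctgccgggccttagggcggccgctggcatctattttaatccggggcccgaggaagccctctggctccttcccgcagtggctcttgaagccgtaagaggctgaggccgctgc

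**Figure D2:**
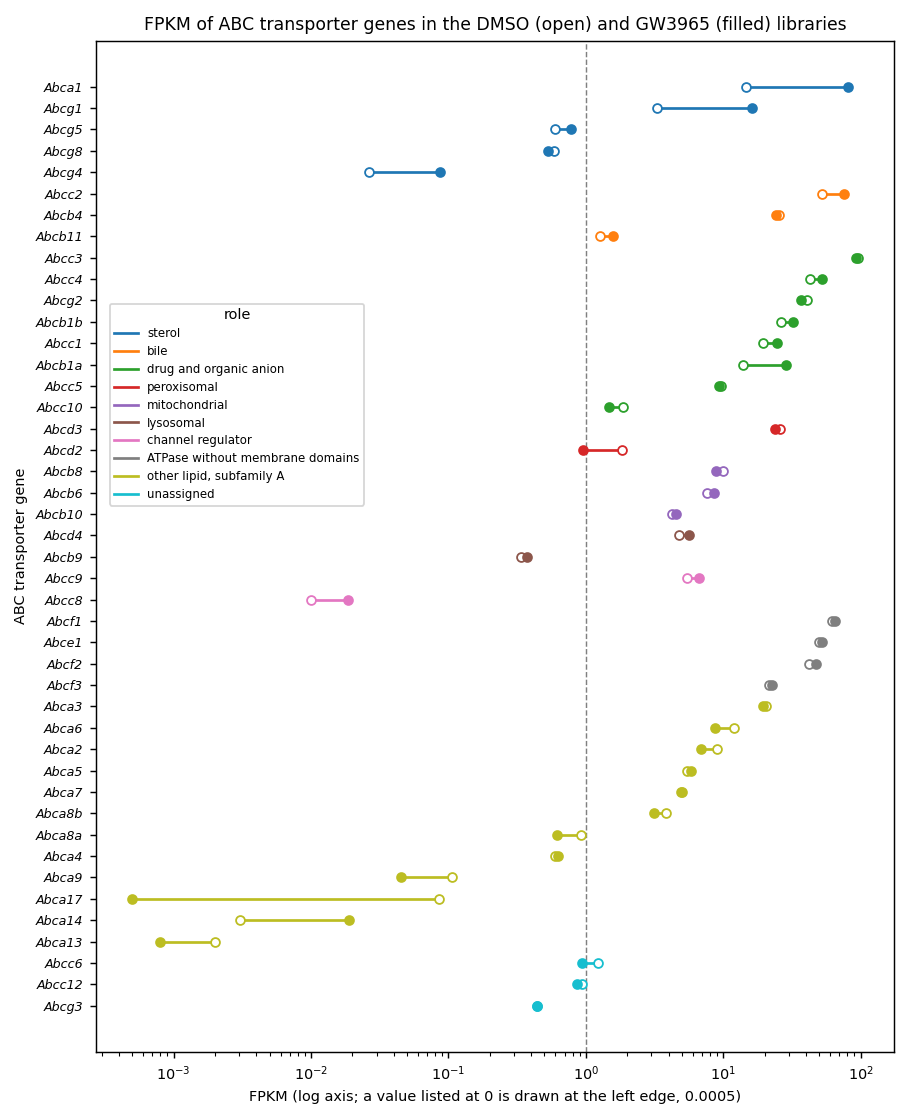
FPKM (horizontal log axis) of 44 ABC genes above 0 in at least 1 library, grouped by role, with the DMSO library as open and the GW3965 library as filled circles. The dashed line marks 1 FPKM, and a value listed at 0 is drawn at 0.0005. The wide gaps of Abca1 and Abcg1 stand against nearly overlapping circles for most other measured genes.

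The D subfamily also holds the half-transporters of peroxisomes. Abcd3, the most abundant of them and a carrier of branched and bile acid precursor acyl-CoA, had 25.8 FPKM in DMSO and 23.7 FPKM in GW3965 (-0.12). Abcd2, which carries long-chain and polyunsaturated acyl-CoA, had 1.83 and 0.957 FPKM, the lowest ratio of all measured members at -0.53. Without a pseudocount the FPKM ratio of Abcd2 was 0.523 (counting interval 0.460 to 0.593), which is past 1.5-fold, and its log2 value of -0.93 had a standard error of 0.48 in the authors' deposited table (p = 0.0529). On that scale 1 measured member was at least 1.5-fold lower, beside 2.7% of the 11750 measured genes above 0 in both libraries, and 3 were at least 1.5-fold higher, beside 1.68%. All 8 listed peroxisome partners were measured, and their ratios lay between -0.20 for Acaa1a, a thiolase, and 0.12 for Pex19, the import receptor for peroxisomal membrane proteins.

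The mitochondrial members described here lay close to no difference. Abcb8 had 9.96 and 8.84 FPKM (-0.16). Abcb6, a porphyrin transporter also found in other membranes, had 7.63 and 8.55 FPKM (0.15). Abcb10, which supports haem synthesis, had 4.27 and 4.51 FPKM (0.06), but the table places it in a merged locus of 152 genes and its standard error of 4.81 in the authors' deposited table was the widest of the measured members. The 7 listed genes of iron-sulfur cluster and haem synthesis lay between -0.11 and 0.07.

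Abce1 and the F subfamily have ATPase domains but no membrane part, and act on ribosomes and translation. Abcf1 had 61.9 FPKM in DMSO and 65.1 FPKM in GW3965, Abce1, the ribosome recycling factor, had 49.5 and 52.1 FPKM, Abcf2 had 41.7 and 47.0 FPKM and Abcf3 had 21.3 and 22.6 FPKM. All 4 ratios were small and above 0, from 0.07 to 0.17, while 52.9% of all measured genes had a ratio above 0. These 4 genes made up 26.6% of the family's summed FPKM in DMSO. The 6 listed translation partners lay between -0.10 and 0.14.

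Apart from Abca1, subfamily A holds lipid transporters of which several are known from lung, brain or retina. Of 15 such genes 6 were measured, and 5 of those had ratios below 0, with a median of -0.14. Among all measured genes 52.9% had a ratio above 0, and 6 genes are few to set beside that share. Abca3, the lamellar body transporter of lung surfactant, was the highest at 20.3 and 19.4 FPKM (-0.07). Abca6 had 11.9 FPKM in DMSO and 8.68 FPKM in GW3965 (-0.42), and Abca2, a lysosomal and endosomal lipid transporter, had 8.98 and 6.93 FPKM (-0.33). Abca8b had 3.83 and 3.16 FPKM (-0.22), Abca7 had 4.98 and 4.95 FPKM (-0.01) and Abca5 had 5.43 and 5.86 FPKM (0.09). For Abca6 the standard error in the authors' deposited table was 0.24 against a log2 value of -0.46 without a pseudocount (p = 0.0584).

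Abca8b, Abca8a, Abca9, Abca6 and Abca5 lie in that order on chromosome 11, with gaps of 4770 to 29788 bases between them. The first 4 had lower values in GW3965 and Abca5 did not, while 52.9% of all measured genes had a ratio above 0. Of the first 4, Abca8a and Abca9 lay below 1 FPKM in both libraries. Abca8a had 0.927 and 0.621 FPKM, and Abca9 had 0.107 and 0.0450 FPKM, an FPKM ratio of 0.422 with a counting interval of 0.240 to 0.722. Abca8a and Abca8b share 3.54% of the 25-base words of Abca8a, and the standard error of Abca8a was 1.58 in the authors' deposited table. None of the 5 was called there, but Abca9 was not tested.

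The remaining measured members were Abcc9, Abcd4 and Abcc6. Abcc9, a sulfonylurea receptor that forms part of ATP-sensitive potassium channels, had 5.44 FPKM in DMSO and 6.65 FPKM in GW3965 (0.25). Abcd4, which takes part in the release of cobalamin from lysosomes, had 4.76 and 5.63 FPKM (0.20). Abcc6, the gene of pseudoxanthoma elasticum, had 1.22 and 0.932 FPKM (-0.20). Among members under 1 FPKM, Abcc12, Abca4, Abcg3 and Abcb9 lay between 0.335 and 0.943 FPKM in both libraries. At the bottom, Abcc8 and Abca13 stood at values whose ratios are those of 3 against 7 reads and of 2 against 1 read, and Abca14 was estimated at 1 and 8 fragments. Abca17 had 0.0851 FPKM in DMSO and was listed at 0 in GW3965, and 4.62% of its 25-base words also occur in Abca3, its neighbour on chromosome 17.

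**Figure D3:**
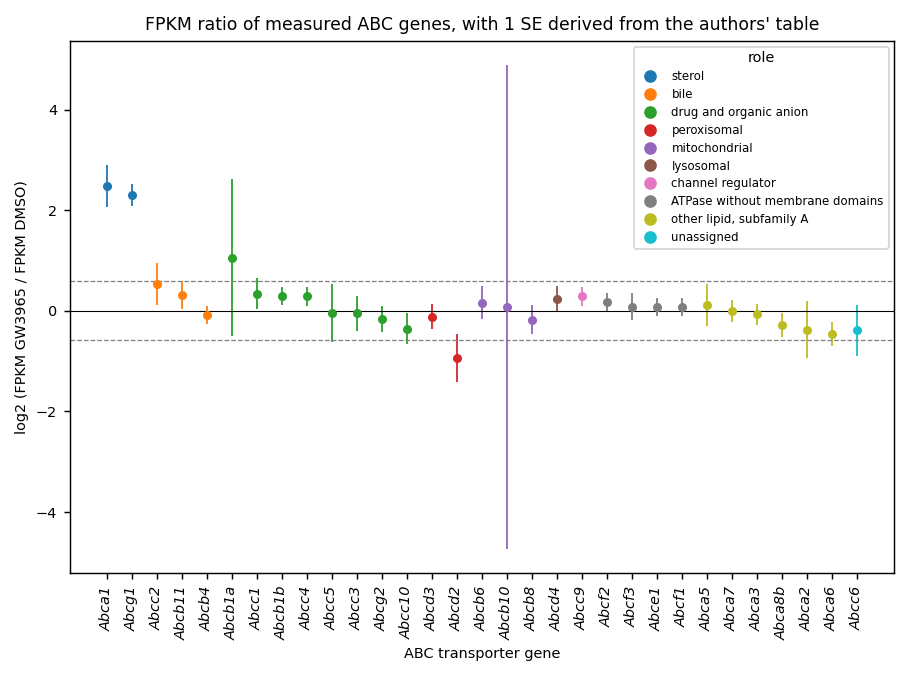
Log2 of the FPKM ratio of GW3965 over DMSO without a pseudocount (vertical axis) for 31 of the measured ABC genes, grouped by role. Bars are 1 standard error derived from the authors' deposited table, and dashed lines mark 1.5-fold. Abca1 and Abcg1 lie above 2, and Abcb1a and Abcb10 have the longest bars, which cross 0.

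Over the measured members, the log2 standard errors computed from the authors' deposited table had a median of 0.28 and ranged from 0.18 to 4.81. Each was at least 2.97 times the counting error of its gene, a multiple that was lowest for Abcb11. The summed FPKM of all 50 members was 656 in DMSO and 790 in GW3965, a difference of 134. Abca1 contributed 66.5 of it, Abcc2 23.4, Abcb1a 14.9 and Abcg1 13.0. Abca1 made up 2.22% of the family's sum in DMSO and 10.3% in GW3965. Without Abca1 and Abcg1 the sums were 638 and 693. Subfamily C held the largest share, at 35.1% and 33.5%.

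The receptors themselves differed little. Nr1h3 and Nr1h2, which encode LXRα and LXRβ, had 20.0 and 16.3 FPKM (-0.29) and 44.0 and 45.3 FPKM (0.04). Neither the 7 listed receptors and cofactors nor the 9 listed partners of sterol efflux held a gene past 1.5-fold. Over all measured genes 1.02% were that much higher and 1.33% that much lower, so lists this short would mostly hold none. Apoa1, the acceptor of cholesterol from Abca1, had 598 and 660 FPKM (0.14), and Npc1, which releases cholesterol from lysosomes, stood at 0.22. Of 7 genes listed as other LXR targets, 6 were at least 1.5-fold higher, beside 1.02% of all measured genes, and the authors' deposited table called 3 of the 7. That list was chosen with earlier results of these data known, so its count is no independent support. Abcg5 and Abcg8, which lay below 1 FPKM, are not in it. Scd1, a fatty acid desaturase, stood at 2.25 and was called, whereas Srebf1, Fasn and Lpcat3 were not. The seventh, Myo9a, at 0.47, is not an established target. The superfamily genes Tap1 and Tap2, which transport peptides that are then presented by MHC class I, had 16.7 and 13.0 FPKM (-0.34) and 23.3 and 20.2 FPKM (-0.20). Cftr was far below 1 FPKM in both.

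The steps between low values place the depth near 63300000 fragments in DMSO and near 78700000 in GW3965. Of the 7 hepatocyte markers, Alb was marked as having too many fragments and could not be compared. Another 5 were measured, with ratios between -0.46 and 0.31, of which 2 were above 0. Tat was below 1 FPKM in both libraries, at 0.962 FPKM in DMSO and 0.447 FPKM in GW3965, a log2 value of -1.10 without a pseudocount. Markers of other liver cells were present. The summed level of 6 macrophage markers was 83.0 FPKM in DMSO and 102 FPKM in GW3965, most of it Cd68, and 2 of the 4 measured ones had ratios above 0. Those of 5 endothelial markers summed to 121 and 144 FPKM, and all 5 had ratios above 0, from 0.08 to 0.30. Stellate cell or fibroblast markers summed to 73.9 and 76.8 FPKM, with 4 of 4 measured ones above 0, and cholangiocyte markers to 19.6 and 21.6 FPKM. Of all measured genes, 52.9% had a ratio above 0, and these lists are short. No marker in these 4 lists was at 0. None of the measured ones passed 1.5-fold, while 97.7% of all measured genes lay within it. For markers below 1 FPKM the pseudocount hides most differences. Without it Cd163, at 0.0149 and 0.0269 FPKM, stood at 0.86 on the log2 scale, past 1.5-fold, at a level too low to say more. Their part in the ratios of Abca1, Abcg1, Abcb1a and Abcc9 was not tested. In bulk RNA, fewer cells of a type and less RNA per cell cannot be told apart, and with 1 culture library per group a difference between cultures cannot be told apart from the ligand.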

How the data were processed

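RNA sequencing libraries came from total RNA of cultured hepatocytes, 1 per group, made with a TruSeq kit per the labels' protocols. The submitters' processing notes name Cuffdiff, Cufflinks 2.0.2, TopHat2 2.0.6 and CASAVA and the builds NCBIM37 and mm9. How strand and library size were handled is not given in the sources used here. Values were deposited as FPKM, 1 column per library per the file headers. Beside them the authors' table holds a p-value, a q-value and a test statistic, a score made by the authors, per the file headers. The standard error of a log2 value was taken as its size over that of the score.

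The 7 genes with the mark for too many fragments were dropped. Ratios used a pseudocount of 1, a minimum of 1 FPKM in either library and a threshold of 1.5-fold. No test was computed. Every measured member and every sterol or bile member was named, apart from items that are not reported here, and further low members after their values were seen. Members, roles, lists and settings were chosen with earlier results of these data known. Alternatives were pseudocounts of 0.1 and 5, no minimum or 5 FPKM, 2-fold, centring, equal sums and the genes the authors tested. Added after seeing the data were no pseudocount and leaving out Abcb1a.

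Depth was derived from 1536 low genes (under 0.05 FPKM, above 0 in both libraries). Their most frequent DMSO to GW3965 ratio was 1.24, and after division by it 72.7% were ratios of whole numbers up to 10, to within 0.1%. Genes with 1 GENCODE M21 transcript gave the scale, with 160 bases taken off each length. Fragment numbers of members use the longest annotated transcript and are estimates. Starts in the table count from 0, judged by the 19859 loci that hold 1 gene (58.5% match the length in GENCODE, against 1.53% if starts counted from 1), so 1 was added. Positions are mm9, and promoter windows are RefSeq on GRCm38.p6. The rules were tested on simulated data. Tools were matplotlib 3.10.9, scipy 1.17.1, pandas 2.3.3 and numpy 2.4.6 under Python 3.11.15.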

Additional observations from a re-analysis of the deposited data

How the results depend on the processing

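The members at least 1.5-fold higher were Abca1, Abcg1 and Abcb1a under all 8 alternatives fixed at the outset, a 2-fold threshold included, and without a pseudocount. Leaving out Abcb1a gave 2. The count of members at least 1.5-fold lower was 1, Abcd2, with a pseudocount of 0.1 and without a pseudocount, and 0 otherwise. Group medians rest on few measured genes, 3 for bile, 2 for sterol, 1 unassigned and 2 in subfamily G. In the main setting they were 0.18, 2.21, -0.20 and 0.93 in that order. The value of subfamily G is only the middle of Abcg1 and Abcg2, which went opposite ways. With a pseudocount of 0.1 medians were 0.29 for bile, 2.37 for sterol and -0.35 for unassigned members and 1.06 for subfamily G. With a pseudocount of 5 they were 0.069, 1.75, -0.068 and 0.61 in the same order. Without a minimum they were 0.13 for channel regulators, 0.16 for sterol and -0.066 for unassigned members, 0.040 for subfamily G and -0.014 for subfamily C. At a minimum of 5 FPKM they were 0.28 for drug transporters and 0.27 for subfamily C. Pseudocounts act by construction on low genes, and other minimums change which genes enter. Of 226 values of the 36 named genes under alternatives, all 226 kept their sign, and 13 moved by more than the 95% range of counting error. Only centring and equal sums could change a sign. Pseudocounts, minimums and the choice of tested genes leave it fixed by construction, so the count of signs kept says little. Centring, which shifts all ratios by 0.01, moved no call of a member. Depth limits members under 1 FPKM, Abcg4, Abcg5 and Abcg8 among them. No paired analysis was possible because there is 1 library in each group.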
